A study of Sparus aurata with 9 samples.

Results

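The genes described here are the redox and glutathione defence genes of gilthead sea bream (Sparus aurata) myoblasts. They were picked by a rule on gene symbols that covers glutathione synthesis and reduction, glutathione peroxidases, glutathione S-transferases, peroxiredoxins, the thioredoxin system, glutaredoxins, superoxide dismutases, catalase, heme oxygenases, Nrf2 and Keap1, methionine sulfoxide reductases and the sulfide oxidase sqor. This gave 62 of the 27159 genes in the table, with 57 different symbols, and 57 of the 62 held enough counts to be tested. No gene in the table carried the symbols gpx5, gpx6, txn, sod1, nqo1, selenop or selenow, so these were not analysed here.

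RNA was sequenced in 9 libraries, 3 per group, from primary cells of fast muscle grown to day 8, when the first myoblasts fuse. CTR cells then spent 36 h in a medium free of amino acids (a salt solution with glucose and vitamins). AA cells spent 12 h in that medium and 24 h in DMEM, a culture medium with amino acids, for which no serum is listed. Igf-1 cells spent 12 h in the medium free of amino acids. They then spent 24 h in the same medium with recombinant sea bream insulin-like growth factor 1 and bovine serum albumin as carrier. Amino acids cannot be told apart from the other components of DMEM, nor Igf-1 from its carrier, since CTR received neither. The study used 3 independent cultures, and no source says which library came from which.

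Reactive oxygen species arise in every respiring cell, and muscle makes more of them when it contracts. Peroxiredoxins and glutathione peroxidases reduce hydrogen peroxide, and they are returned to their active form by thioredoxin and glutathione, which draw their electrons from NADPH. Glutathione is built from glutamate, cysteine and glycine, so its synthesis needs amino acids, and Keap1 holds the transcription factor Nrf2 at a low level until oxidants or electrophiles release it to induce many of these genes.

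The 9 libraries held 48725967 to 67887824 estimated counts, with 3 libraries per group. Normalized counts below are counts scaled to the mean effective library size, so they compare libraries within a gene but not genes with one another. Together the 62 genes took 0.726 to 0.882% of all counts in a library. The muscle genes myog, mymk, DES and CKM were present in every group, and the marker sums of several cell types differed between groups. In normalized counts, 20 muscle markers summed to 665503 to 1056440 in CTR, 1177840 to 1738060 in AA and 963386 to 1189590 in Igf-1. The 14 pigment cell markers summed to 2294 to 3029 in CTR, 787 to 1191 in AA and 1727 to 2101 in Igf-1, and the 11 endothelial markers to 6497 to 8261, 4523 to 5308 and 5395 to 5990. The endothelial fall was that of plvapb (means of 3929, 310 and 897, adjusted p = 7.8e-05 in AA against CTR), while kdr was higher in AA (log2 1.22, adjusted p = 0.0072). The 10 fibroblast markers summed to 746685 to 883283 in CTR, 884323 to 980214 in AA and 870320 to 914718 in Igf-1, and the 3 adipocyte markers to 4618 to 7072, 5681 to 9337 and 4197 to 7594. Sums of 12 neural markers ran from 2239 to 2999 in CTR and from 2127 to 3322 in AA, with elavl3 and syn1 at 0 throughout. The part of these cells in the results was not tested.

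Expression was dominated by a few of these genes. FPKM, the authors' level per length of transcript, was held for CTR by 5 of these genes alone, so levels between genes are means over the 6 AA and Igf-1 libraries. prdx1, the abundant cytosolic peroxiredoxin, stood at 3160 FPKM and made up 43.5% of the summed FPKM of all 62 genes. It was followed by gsto2 at 718 FPKM, an omega-class transferase that also reduces dehydroascorbate, then by the microsomal transferase mgst3b at 301 FPKM, prdx2 at 284 FPKM and prdx6 (ENSSAUG00010009268) at 279 FPKM. The top 5 made up 65.3% of the sum.

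By class, peroxiredoxins with sulfiredoxin held 56.1% of the summed FPKM, glutathione S-transferases 23.4% and the thioredoxin system with glutaredoxins 10.3%. Glutathione peroxidases held 4.37%, glutathione synthesis and reduction 2.47%, superoxide dismutases with catalase 1.55%, Nrf2, Keap1 and the heme oxygenases 1.20%, methionine sulfoxide reductases 0.535% and sqor 0.0925%. The leading gene of each remaining class was txnipa at 210 FPKM, gpx1a at 205 FPKM, gclm at 75.6 FPKM, sod2 at 62.5 FPKM, nfe2l2a at 48.2 FPKM, MSRB1 at 18.2 FPKM and sqor at 6.72 FPKM. In all, 12 genes exceeded 100 FPKM and 9 lay below 1 FPKM.

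**Figure D1:**
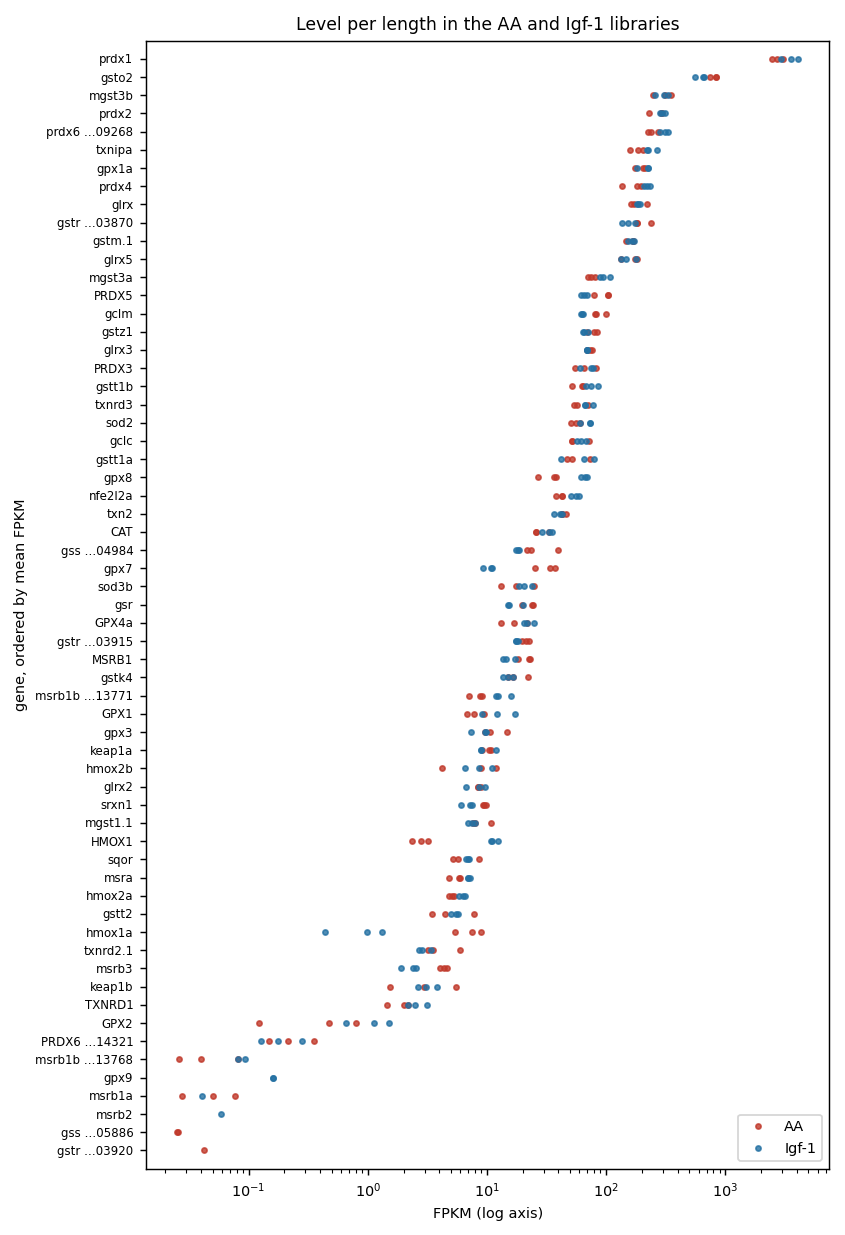
FPKM of each gene (rows, ordered by mean) on a log axis, with 1 point per library, red for AA and blue for Igf-1; libraries listed at 0 and the gene mgst2, at 0 throughout, are not drawn. Levels run from prdx1 at 3160 FPKM down to genes below 1 FPKM, and the points of HMOX1 and hmox1a separate by group in opposite directions.

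The first comparison asks which of these genes respond when amino acids are returned. Relative to CTR, 3 genes were upregulated in AA (hmox1a, gpx7 and msrb3) and 3 were downregulated (HMOX1, gpx8 and msrb1b), by the criterion of an adjusted p no larger than 0.05 together with a log2 change of 1 or more in either direction (edgeR's quasi-likelihood test, Benjamini-Hochberg adjustment over 17687 genes). These were 6 of the 57 tested, where 8.62% of all genes tested were called, 4.83% higher and 3.79% lower, so the share of called genes was near that of the transcriptome. Without the fold threshold, 9 of the 57 passed, with 4 higher and 5 lower, against 15.2% of all genes (7.46% higher and 7.74% lower). The 3 added by dropping it were gstz1, which was higher in AA, and gclc and nfe2l2a, which were lower.

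The median log2 fold change between AA and CTR was -0.07 over the 57 genes and -0.01 over all genes tested, with 25 of the 57 positive and 32 negative. With 1 library left out, the median of these genes ran from -0.17 (without AA replicate 2) to 0.07 (without CTR replicate 3). The median over all genes then ran from -0.05 to 0.02. A change smaller than 0.5 in size was seen in 39 of the 57 (68.4%), and in 56.8% of all genes. These shares were not matched for expression level, and 54 of the 57 had a mean of at least 50 normalized counts. All AA libraries lay above all CTR libraries in 6 of the 57 genes and below them in 11, while the shares over all genes were 14.6% above and 16.0% below. By class, 2 of 7 glutathione peroxidases, 2 of 7 genes of the Nrf2, Keap1 and heme oxygenase class and 2 of 6 methionine sulfoxide reductases were called. Each of these classes had 1 gene higher and 1 lower, and no gene of the other classes was called with the fold threshold. The share over all genes was 8.62%, and with so few genes in a class nothing is read from these counts about the class. The 6 methionine sulfoxide reductases include ENSSAUG00010013768, which carries the symbol msrb1b but is described as the meiosis gene meiob. It was kept in all counts by the rule on symbols. With CTR replicate 3 and AA replicate 2 both left out, 4 genes were called, gpx7, HMOX1, hmox1a and msrb3. That fit called 1527 of the 18196 genes it tested. Of all pairs of libraries from different groups, CTR replicate 3 and AA replicate 2 had the most correlated deviations from their group means (0.40).

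**Figure D2:**
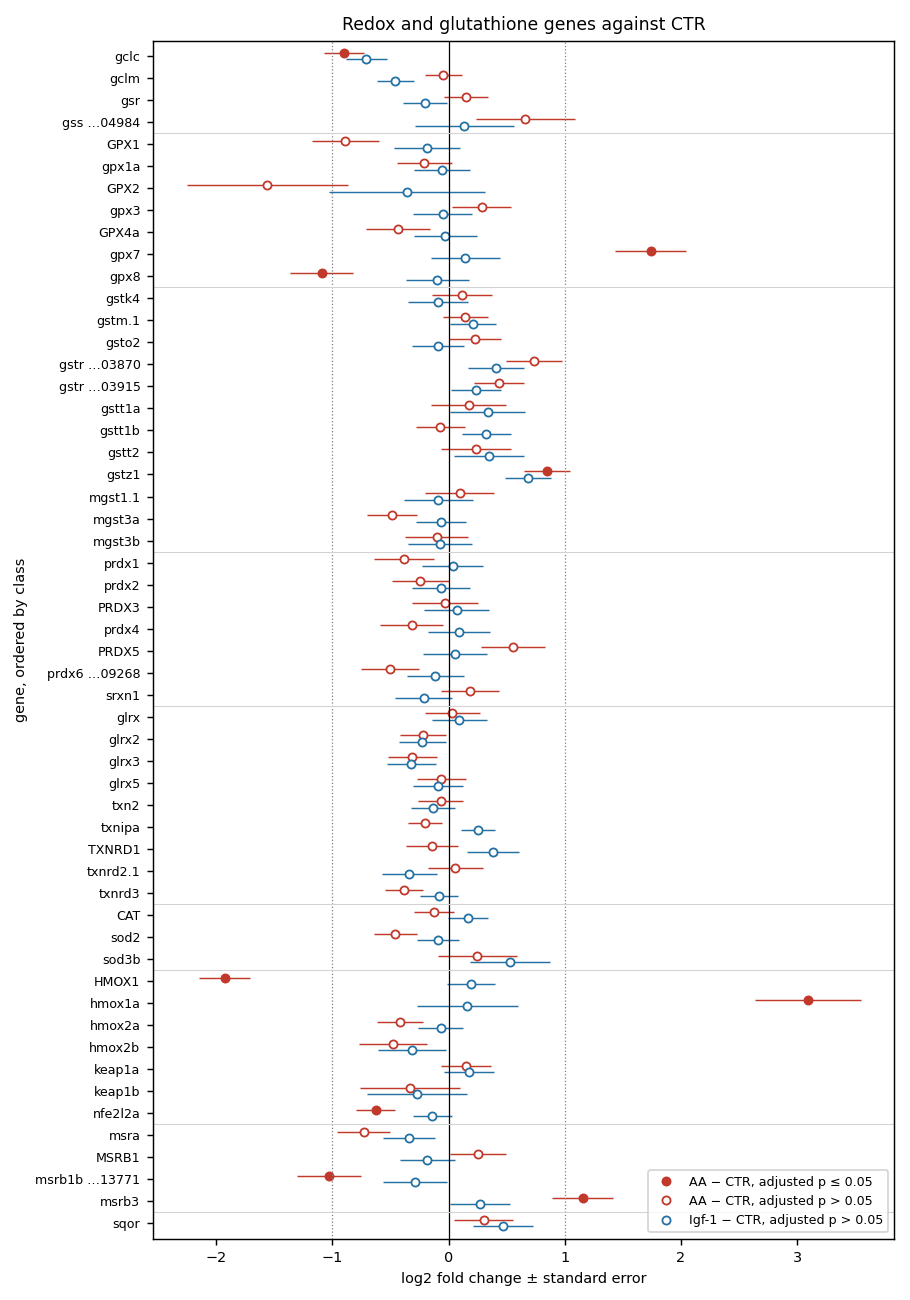
Log2 fold change with its standard error (edgeR) for AA against CTR (red) and Igf-1 against CTR (blue), 1 row per gene in class order, for the 54 genes with a mean of at least 50 normalized counts; filled points have an adjusted p of at most 0.05 and dotted lines mark a log2 fold change of 1 in size. In AA, hmox1a at 3.09 and HMOX1 at -1.93 lie farthest from 0, and for Igf-1 no point is filled and all lie between -0.71 and 0.68.

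Heme oxygenase breaks heme down to biliverdin, iron and carbon monoxide, and the inducible form is among the best known Nrf2 targets. The table holds a pair of genes for it. HMOX1 (ENSSAUG00010003067) matches hmox1b and hmox1a (ENSSAUG00010025859) matches the gene of that name in the RefSeq annotation of assembly fSpaAur1.1. They moved in opposite directions in AA, and these were the largest changes in either direction among the 54 genes with a mean of at least 50 normalized counts.

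HMOX1 had 754, 481 and 749 normalized counts in CTR 1, 2 and 3, against 181, 165 and 174 in AA and 760, 747 and 759 in Igf-1. All AA libraries lay below all others, and the AA replicates differed little. The mean was 661 ± 156 (SD, n = 3) in CTR and 174 ± 8.00 in AA, and the log2 fold change was -1.93 ± 0.22 (adjusted p = 3.8e-04). The value after ± is the SD of 3 libraries beside a mean and the standard error of the fit beside a log2 fold change, here and below.

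For hmox1a, the normalized counts were 74.0, 71.6 and 108 in CTR, 745, 963 and 450 in AA, and 41.0, 136 and 106 in Igf-1. Every AA library lay above every other one, and CTR and Igf-1 overlapped. Means were 84.6 ± 20.5 in CTR and 719 ± 258 in AA, an 8.51-fold difference (log2 3.09 ± 0.46, adjusted p = 0.0015).

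These genes also have deposited FPKM in CTR, so their levels per length can be set side by side in all 9 libraries. HMOX1 stood at 12.1, 7.95 and 9.06 FPKM in CTR, 2.78, 2.34 and 3.21 FPKM in AA and 12.4, 11.1 and 10.9 FPKM in Igf-1. Over the same libraries hmox1a stood at 0.777, 0.767 and 0.850 FPKM in CTR, 7.49, 8.93 and 5.42 FPKM in AA and 0.440, 1.33 and 0.988 FPKM in Igf-1. The more abundant copy was therefore HMOX1 in each CTR and Igf-1 library and hmox1a in each AA library.

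The ratio of hmox1a to HMOX1 in FPKM ranged from 0.0641 to 0.0964 in CTR, from 0.0353 to 0.119 in Igf-1 and from 1.69 to 3.82 in AA. The summed FPKM of both copies ranged from 8.72 to 12.9 in CTR, 8.63 to 11.3 in AA and 11.9 to 12.9 in Igf-1, so CTR and AA overlapped in the sum. Reads that fit both copies could have been counted to either, and how many did was not tested. Markers of red blood cells, whose precursors make heme in quantity, summed to 380 to 450 normalized counts in CTR, 192 to 309 in AA and 383 to 577 in Igf-1 over 5 genes, with the heme synthesis gene alas2 at means of 2.53, 3.34 and 0.928. The lower sum in AA was that of slc4a1b (means of 323, 166 and 382) and epor (45.8, 6.74 and 34.5), while rhag had means of 32.7, 55.9 and 86.0, and none of the 3 passed the test in AA. Markers of leukocytes, which include the heme-degrading macrophages, summed to 15229 to 24126 in CTR, 21535 to 31743 in AA and 18218 to 27153 in Igf-1 over 10 genes, with mpx at means of 1.27, 4.35 and 0. The leukocyte markers moved apart in AA: coro1a (log2 1.62, adjusted p = 0.0049) and lcp1 (log2 0.77, adjusted p = 0.041) were higher, csf1ra was lower (log2 -0.79, adjusted p = 0.046), and the macrophage gene mpeg1.2 gave -0.01. The part of these cells in the heme oxygenase values was not tested, and in bulk RNA fewer cells of a type and less RNA per cell cannot be told apart.

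**Figure D3:**
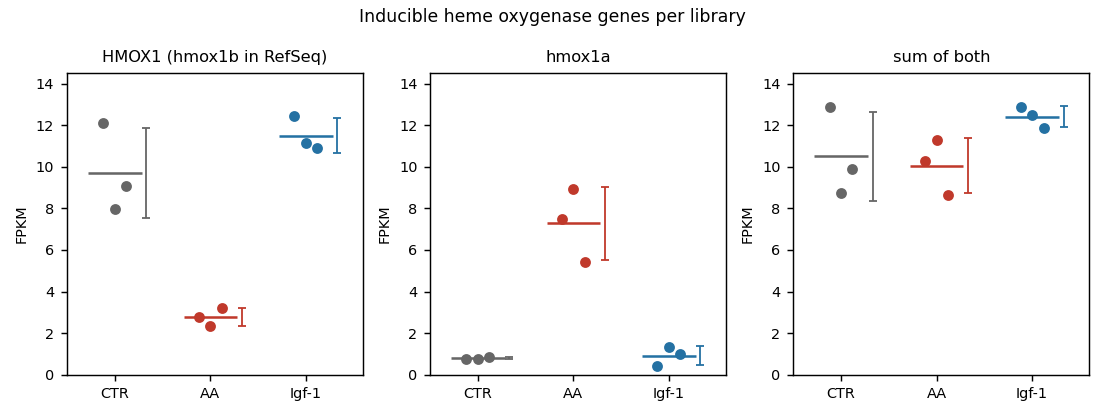
FPKM of HMOX1, of hmox1a and of their sum (3 panels) in each of the 9 libraries by group, with the group mean as a horizontal line and the SD as a bar beside it. HMOX1 is lowest in the 3 AA libraries (2.34 to 3.21 FPKM), hmox1a is highest there (5.42 to 8.93 FPKM), and the sums of CTR and AA overlap.

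The constitutive heme oxygenases did not pass the test. hmox2a had log2 fold changes of -0.42 ± 0.20 (adjusted p = 0.19) and hmox2b of -0.48 ± 0.29 (adjusted p = 0.33) in AA, although for hmox2a the AA libraries (400.5 to 555) lay below those of CTR (610 to 745). The mRNA of Nrf2 itself was lower on the adjusted p alone, and its protein was not measured. nfe2l2a, the only copy of the Nrf2 gene that the rule found, had 8610, 10054 and 11667 normalized counts in CTR, 6196, 7594 and 5835 in AA and 8654, 8515 and 10342 in Igf-1. All AA libraries lay below all others. Its log2 fold change in AA was -0.63 ± 0.17 (adjusted p = 0.030), below the fold threshold. On the adjusted p, nfe2l2a no longer passed without CTR replicate 2 (0.075), CTR replicate 3 (0.093), AA replicate 1 (0.15), AA replicate 3 (0.083) or Igf-1 replicate 2 (0.055). Nor did it pass in a fit of AA and CTR only (0.080) or with the replicate number as a block (0.064). The repressors of Nrf2 gave values of 0.15 ± 0.22 for keap1a and -0.33 ± 0.43 for keap1b, and neither passed. keap1b varied widely within CTR, with 699, 1051 and 315 normalized counts.

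Among the glutathione peroxidases, the changes in AA fell on gpx7 and gpx8, which in mammals encode peroxidases of the endoplasmic reticulum that lack selenium. gpx7 (ENSSAUG00010007871) had 596, 431 and 962 normalized counts in CTR, 2585, 2552 and 1484 in AA and 703, 796 and 697 in Igf-1. The AA libraries lay above all others, AA replicate 3 being the lowest of them. The mean rose from 663 ± 272 in CTR to 2207 ± 627 in AA, a 3.33-fold difference (log2 1.74 ± 0.30, adjusted p = 0.0038).

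gpx8 (ENSSAUG00010021946) had 4266, 3312 and 6399 normalized counts in CTR, 2485, 2608 and 1466 in AA and 3769, 4664 and 4626 in Igf-1. All AA libraries lay below all others, with the highest CTR value in replicate 3 and the lowest AA value in replicate 3. Its mean fell from 4659 ± 1581 to 2186 ± 627, a log2 fold change of -1.09 ± 0.27 (adjusted p = 0.022). The call ended without CTR replicate 3 (log2 -0.76, adjusted p = 0.066), AA replicate 1 (0.063) or AA replicate 3 (0.052), and likewise in a fit of AA and CTR only (0.063) and with a replicate block (0.075). Per length, gpx8 exceeded gpx7 in Igf-1 (66.1 ± 3.98 against 10.4 ± 0.924 FPKM), while their levels in AA were within 1 SD of each other (34.1 ± 6.14 against 32.3 ± 5.99 FPKM).

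The other peroxidases did not pass in the fit of all 9 libraries. gpx1a, the most abundant one, encodes the cytosolic selenium enzyme and had 11662, 11789 and 18570 normalized counts in CTR, 12751, 14384 and 9222 in AA and 10748, 14461 and 15168 in Igf-1. The groups overlapped, at a log2 fold change of -0.21 ± 0.24 for AA (adjusted p = 0.64). Its paralogue GPX1, named gpx1b in RefSeq, ran lower in AA (320 to 543 normalized counts, against 622 to 1087 in CTR). GPX1 missed the threshold (log2 -0.89 ± 0.29, adjusted p = 0.064) and passed on the adjusted p alone with DESeq2. GPX4a, the peroxidase of membrane lipids, gave -0.43 ± 0.27, the secreted gpx3 gave 0.28 ± 0.25, and GPX2, at means of 77.2 in CTR and 26.3 in AA, gave -1.56 ± 0.69 (adjusted p = 0.17). gpx9 was seen in Igf-1 replicates 2 and 3 alone, with at most 7.71 normalized counts, and was not tested.

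Methionine sulfoxide reductases repair oxidized methionine in proteins. msrb3 (ENSSAUG00010001462), whose mammalian product acts in the endoplasmic reticulum and mitochondria, had 98.7, 104 and 131 normalized counts in CTR, 235, 295 and 212 in AA and 133, 151 and 119 in Igf-1. The AA libraries lay above all others. The mean rose from 111 ± 17.6 to 247 ± 42.9 (log2 1.15 ± 0.26, adjusted p = 0.014), and the call ended without CTR replicate 1 (adjusted p = 0.055) or CTR replicate 2 (0.053).

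msrb1b (ENSSAUG00010013771) moved the other way. It belongs to the MsrB1 group, which in mammals is a selenoprotein of the cytosol and nucleus. It had 731, 826 and 1234 normalized counts in CTR, 491, 551 and 326 in AA and 622, 713 and 949 in Igf-1, and the AA libraries lay below all others. The mean fell from 930 ± 268 to 456 ± 116 (log2 -1.03 ± 0.28, adjusted p = 0.031). The call ended without CTR replicate 2 (adjusted p = 0.055), CTR replicate 3 (log2 -0.74, adjusted p = 0.096), AA replicate 1 (0.095), AA replicate 3 (0.082) or Igf-1 replicate 2 (0.054), and likewise in a fit of AA and CTR only (0.067) and with a replicate block (0.081).

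MSRB1, the most abundant gene of the class, had 880, 760 and 1194 normalized counts in CTR, 1213, 1342 and 827 in AA and 695, 967 and 833 in Igf-1. The groups overlapped (log2 0.25 ± 0.24 in AA against CTR, adjusted p = 0.56). msra, which reduces the other stereoisomer of methionine sulfoxide, ran lower in AA without overlap (385 to 610 against 723 to 1054). It missed the threshold (log2 -0.73 ± 0.23, adjusted p = 0.055), and passed on the adjusted p alone with DESeq2 and with counts divided by 4. The remaining 3 genes of the class were near the detection limit. msrb1a had 20.0, 13.4 and 6.07 normalized counts in AA and 0 in each CTR library, a second gene with the symbol msrb1b (ENSSAUG00010013768), which the files describe as the meiosis gene meiob, averaged at most 17.4 in any group, and msrb2 was seen in Igf-1 replicate 1 alone.

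**Figure D4:**
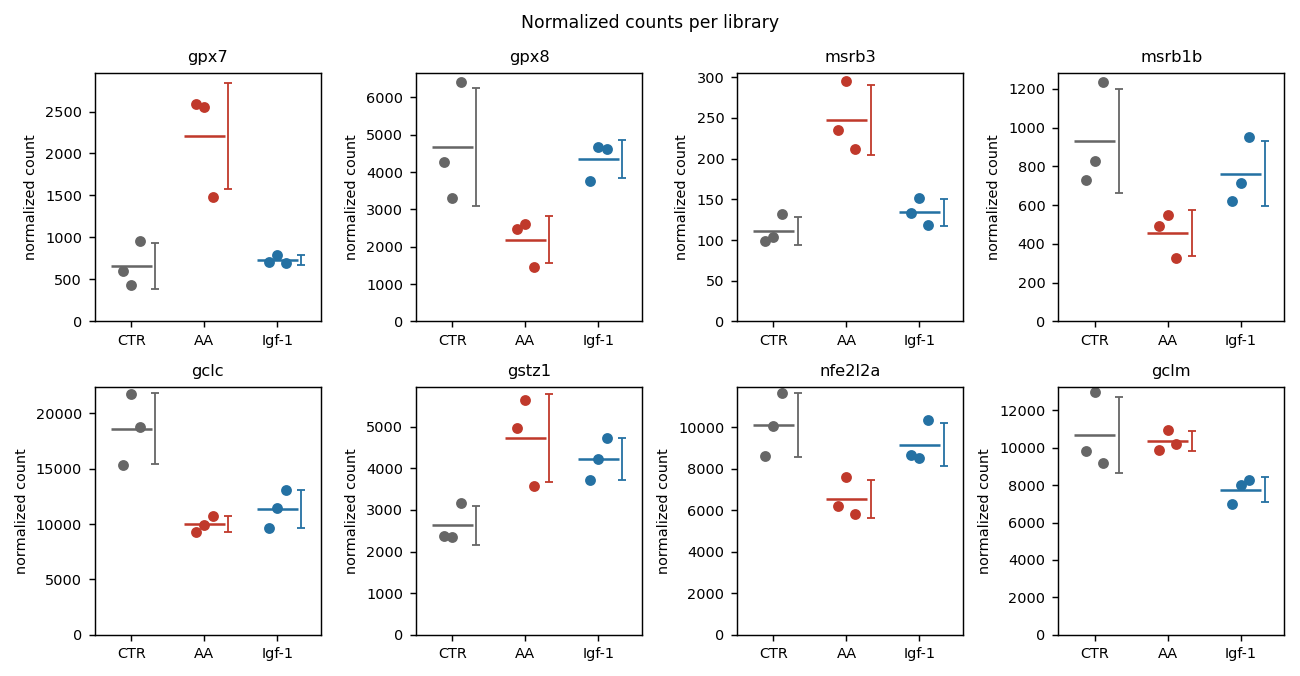
Normalized counts (linear axes from 0) of gpx7, gpx8, msrb3, msrb1b (ENSSAUG00010013771), gclc, gstz1, nfe2l2a and gclm, 1 panel each, with 1 point per library, the group mean as a line and the SD as a bar. gpx7 and msrb3 are highest in AA, gpx8, msrb1b and nfe2l2a are lowest there, and gclc is lower in both AA and Igf-1 than in any CTR library.

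Glutathione synthesis begins with glutamate-cysteine ligase, whose catalytic subunit gclc sets the rate and whose modifier subunit gclm raises the enzyme's affinity for glutamate. gclc (ENSSAUG00010025986) had 15310, 21718 and 18730 normalized counts in CTR, 9265, 9955 and 10702 in AA and 9620, 11450 and 13081 in Igf-1. Every CTR library lay above every other library. In AA the log2 fold change was -0.90 ± 0.17 (adjusted p = 0.0065), which is below the fold threshold of 1.

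gclm, the most abundant gene of its class, showed another pattern, with 9817, 12968 and 9198 normalized counts in CTR, 9872, 10919 and 10215 in AA and 6988, 8001 and 8270 in Igf-1. CTR and AA overlapped (log2 -0.04 ± 0.16, adjusted p = 0.90), and Igf-1 lay below both. The second enzyme of the pathway, glutathione synthetase, is represented by gss (ENSSAUG00010004984) at 4984, 5568 and 1210 normalized counts in CTR, 5492, 5460 and 7641 in AA and 4028, 4456 and 4441 in Igf-1. CTR replicate 3 was far below every other library of gss, and AA did not differ from CTR by the test (log2 0.66 ± 0.43, adjusted p = 0.36). Nor did AA differ from Igf-1 in the fit of all 9 libraries (log2 0.52 ± 0.43, adjusted p = 0.57). On the adjusted p alone, gss passed in AA against Igf-1 without CTR replicate 3, where 1987 of all genes passed. It also passed without both CTR replicate 3 and AA replicate 2, where 2536 did. A second gss gene (ENSSAUG00010005886) reached 35.2 normalized counts in CTR replicate 2 and was near 0 elsewhere. gsr, which reduces oxidized glutathione, gave 0.15 ± 0.19 (adjusted p = 0.67).

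Of the 12 glutathione S-transferases tested, gstz1 alone passed in AA in the fit of all 9 libraries, on the adjusted p without the fold threshold. Its product, of the zeta class, is also known as maleylacetoacetate isomerase and acts in the breakdown of phenylalanine and tyrosine. gstz1 (ENSSAUG00010005093) had 2378, 2341 and 3168 normalized counts in CTR, 4967, 5647 and 3575 in AA and 3725, 4221 and 4724 in Igf-1. Both treated groups lay above CTR without overlap. The log2 fold change in AA was 0.85 ± 0.20 (adjusted p = 0.017). On the adjusted p, gstz1 no longer passed without CTR replicate 1 (0.065), CTR replicate 2 (0.067), AA replicate 1 (0.050, just above the threshold) or AA replicate 2 (0.053). Nor did it pass in a fit of AA and CTR only (0.051) or with a replicate block (0.052).

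gsto2, the leading transferase, had 38028, 38526 and 57936 normalized counts in CTR, 55526, 60917 and 41147 in AA and 34570, 44674 and 46907 in Igf-1, and the groups overlapped (log2 0.23 ± 0.23 in AA, adjusted p = 0.58). Of the rho-class genes, which are known from fish, gstr (ENSSAUG00010003870) ran from 22588 to 34002 in CTR and from 36049 to 60868 in AA. It missed the threshold (log2 0.73 ± 0.24, adjusted p = 0.068). On the adjusted p alone it passed with DESeq2, without CTR replicate 3, without AA replicate 3 and without both CTR replicate 3 and AA replicate 2. A neighbour in name, gstr (ENSSAUG00010003915), gave 0.43 ± 0.22 and passed on the adjusted p alone without CTR replicate 3. The third (ENSSAUG00010003920) had at most 11.6 normalized counts. The others lay between -0.49 for mgst3a and 0.24 for gstt2, and none passed. Among them were the mu-class gstm.1 (0.14 ± 0.19) and the microsomal mgst3b (-0.10 ± 0.27), while mgst2 was at 0 in all 9 libraries.

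No peroxiredoxin passed in AA in the fit of all 9 libraries, though PRDX5 passed on the adjusted p alone without CTR replicate 3. prdx1 had 125198, 137219 and 196311 normalized counts in CTR, 118531, 143878 and 88645 in AA and 119890, 158985 and 190932 in Igf-1, and the groups overlapped, at a log2 fold change of -0.39 ± 0.26 (adjusted p = 0.38). The values were -0.24 ± 0.25 for the cytosolic prdx2, -0.03 ± 0.28 for the mitochondrial PRDX3, -0.32 ± 0.27 for prdx4 of the endoplasmic reticulum and 0.56 ± 0.27 for PRDX5. prdx6, the peroxiredoxin with a single active cysteine, gave -0.50 ± 0.25 (adjusted p = 0.22), and its low copy PRDX6 (ENSSAUG00010014321) stood at means of 22.0 in CTR and 30.2 in AA. srxn1, sulfiredoxin, which rescues over-oxidized peroxiredoxins, gave 0.18 ± 0.25.

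Thioredoxins, their reductases and the glutaredoxins were also not called in AA. txnipa, whose product binds and inhibits thioredoxin, had 22188, 17661 and 23321 normalized counts in CTR, 19298, 17880 and 17681 in AA and 26154, 24378 and 24657 in Igf-1. Igf-1 lay above both other groups, and AA and CTR overlapped. The log2 fold change was -0.20 ± 0.15 in AA. txnrd3, a reductase of thioredoxin and glutathione, ran lower in AA (11694 to 13523) than in CTR (14262 to 18414) and did not pass (log2 -0.38 ± 0.16, adjusted p = 0.15). TXNRD1, txnrd2.1, txn2, glrx, glrx2, glrx3 and glrx5 lay between -0.31 for glrx3 and 0.06 for txnrd2.1.

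Superoxide dismutases turn superoxide into hydrogen peroxide, which catalase splits. The mitochondrial sod2 had 5362, 6080 and 6669 normalized counts in CTR, 4098, 5307 and 3773 in AA and 4546, 6105 and 6335 in Igf-1. AA lay below CTR without overlap and missed the threshold (log2 -0.46 ± 0.18, adjusted p = 0.13). CAT gave -0.12 ± 0.17 and the secreted sod3b 0.25 ± 0.34. sqor, which passes electrons from sulfide to the respiratory chain, had 1703, 1840 and 834 normalized counts in CTR, 1667, 1637 and 2091 in AA and 1897, 2102 and 2070 in Igf-1, with CTR replicate 3 far below the rest (log2 0.30 ± 0.26 in AA, adjusted p = 0.52).

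The second comparison asks whether Igf-1, given without amino acids, changes these genes. None of the 57 was called, either with the fold threshold or on the adjusted p alone, where 0.260% and 0.283% of all genes were. An unadjusted p of at most 0.05 was reached by 3 of the 57 (gclc, gclm and gstz1), a lower share than the 9.11% of all genes tested. DESeq2 called 0 with the fold threshold and 1 without it, gclc, where 211 and 493 of the 17687 genes were called. A change smaller than 0.5 in size was seen in 52 of the 57 (91.2%), and in 76.4% of all genes, again without matching for expression level.

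The members nearest to a call were in glutathione synthesis and the zeta transferase. gclc gave a log2 fold change of -0.71 ± 0.17 (adjusted p = 0.14), gclm -0.46 ± 0.16 (adjusted p = 0.36) and gstz1 0.68 ± 0.20 (adjusted p = 0.23), and for each the 3 Igf-1 libraries did not overlap with CTR. In all, Igf-1 lay above CTR without overlap in 3 of the 57 genes (gstz1, txnipa and sqor) and below in 2 (gclc and gclm), where 9.35% and 7.88% of all genes did so. The heme oxygenase genes stayed close to CTR, with 0.19 ± 0.21 for HMOX1 and 0.16 ± 0.43 for hmox1a, as did gpx7 (0.15 ± 0.30), gpx8 (-0.10 ± 0.27) and nfe2l2a (-0.14 ± 0.17). The log2 fold changes of gclc and gstz1 had the same sign in AA and Igf-1, but both comparisons use the same CTR libraries.

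The third comparison sets AA directly against Igf-1. Here 3 of the 57 genes were called, where 4.33% of all genes were (2.43% higher in AA and 1.89% lower). hmox1a was 7.61-fold higher in AA (log2 2.93 ± 0.45, adjusted p = 0.0038) and gpx7 3.01-fold higher (log2 1.59 ± 0.30, adjusted p = 0.010). HMOX1 was lower in AA, at a log2 fold change of -2.12 ± 0.22 (adjusted p = 7.4e-04). The call of gpx7 ended without Igf-1 replicate 3 (log2 1.56, adjusted p = 0.058).

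In this fit of all 9 libraries no further gene passed on the adjusted p alone, where 8.37% of all genes did. gpx8 came next (log2 -0.99 ± 0.27, adjusted p = 0.050, just above the threshold), followed by msrb3 at 0.88 ± 0.26 (adjusted p = 0.065) and txnipa at -0.45 ± 0.15 (adjusted p = 0.095). With CTR replicate 3 and AA replicate 2 left out, gpx8 joined the calls, for 4 in all, where 1070 of all genes were called. On the adjusted p alone that setting passed 8 genes, where 2536 of all genes passed. DESeq2 passed 6, adding gpx8, msrb3 and txnipa, where 2429 of all genes passed. Each limma fit on FPKM passed 9, adding gpx8, msrb3, gclm, PRDX5, nfe2l2a and msrb1b (ENSSAUG00010013771), where 1849 and 1906 of all genes passed. AA lay above Igf-1 without overlap in 5 of the 57 genes (gclm, gss, gpx7, hmox1a and msrb3) and below in 12, against 13.6% and 16.7% of all genes. gclc, lower than CTR in AA, did not differ between AA and Igf-1 by the test (log2 -0.19 ± 0.17, adjusted p = 0.62). The difference between the AA and Igf-1 effects is this same comparison, since both effects share CTR. In the fit of all 9 libraries it passed for HMOX1, hmox1a and gpx7. It did not pass there for gclc, gstz1 (0.16 ± 0.20) or nfe2l2a (-0.49 ± 0.17, adjusted p = 0.11). For nfe2l2a it passed in both limma fits and without both CTR replicate 3 and AA replicate 2.

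Within CTR and AA, single libraries stood apart from their group across these genes. CTR replicate 3 held the highest CTR value in 44 of the 57 genes (77.2%), against 40.8% of all genes tested, and AA replicate 3 held the lowest AA value in 42 (73.7%), against 38.1% of all genes. These shares, too, were not matched for expression level. The median deviation from the group mean, on the log2 scale over 54 genes, was 0.30 in CTR replicate 3, 0.23 in AA replicate 2 and -0.33 in AA replicate 3. The exceptions included gss, sod3b, keap1b and sqor, which were lowest in CTR replicate 3. The TMM scaling factor was lowest of the 9 libraries in CTR replicate 3 (0.791) and highest in AA replicate 3 (1.21), and its part in these deviations was not tested. Over all 9 libraries the coefficient of variation of a gene had a median of 23.9%.

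**Figure D5:**
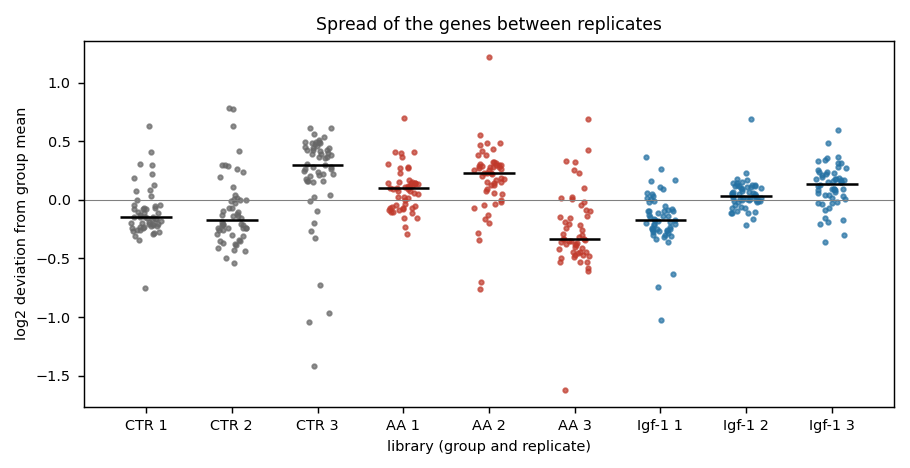
Log2 deviation of each gene from its group mean in each library, 1 point per gene for the 54 genes with a mean of at least 50 normalized counts, with the median as a black line. The medians are 0.30 in CTR 3 and -0.33 in AA 3, and those of the Igf-1 libraries run from -0.17 to 0.14.

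The wider pathway was followed in 134 other genes for glutathione precursors and turnover, NADPH supply, Nrf2 partners and further Nrf2 targets, selenoproteins, sources of superoxide, other protective genes and sulfide oxidation. Of these, 123 were tested and 9 were called in AA against CTR, 4 higher and 5 lower, where 8.62% of all genes were. The median log2 fold change was 0.08, against -0.01 over all genes. On the adjusted p alone 21 passed, 10 higher and 11 lower, where 15.2% of all genes did. Neither share stood far from that of the transcriptome.

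The smallest adjusted p belonged to dpp3, whose product is a dipeptidyl peptidase that in mammals also binds KEAP1. It had 2292, 2646 and 3026 normalized counts in CTR, 9508, 11401 and 9239 in AA and 2962, 3505 and 3468 in Igf-1. The AA libraries lay far above the rest (log2 1.92, adjusted p = 9.5e-05). selenoh followed (log2 2.35, adjusted p = 0.0013), although the files describe this gene as a histone and its identity is uncertain. oplah, which returns 5-oxoproline to glutamate in glutathione turnover, was lower in AA (log2 -1.29, adjusted p = 0.0026), as was the transporter abcc3, which exports conjugates (log2 -0.80, adjusted p = 0.0057).

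The counts by class that follow are on the adjusted p alone, where 7.46% of all genes were higher in AA and 7.74% lower, and with so few genes in a class nothing is read from them about the class. Of 19 genes of NADPH supply, 3 were higher and 1 lower, with a median log2 fold change of 0.42. The genes higher in AA were the cytosolic isocitrate dehydrogenase idh1 (log2 1.11, adjusted p = 0.0057), the malic enzyme me3 (log2 0.89, adjusted p = 0.0042) and, chosen after its value was seen like the rest of the genes in this paragraph, mthfd1b of folate metabolism (log2 0.65). The mitochondrial idh2 was lower (log2 -0.77). In glutathione precursors and turnover, 2 of 19 genes were higher (ggt5a and lancl1) and 4 lower (oplah, cbsa, ANPEP and chac1, an enzyme that degrades glutathione, at -1.12). Among Nrf2 partners and further targets 3 of 25 were higher and 2 lower, among selenoproteins 1 of 22 higher (selenoh, of uncertain identity) and 3 lower, among other protective genes 0 of 20 higher and 1 lower, among sulfide oxidation genes 1 of 3 higher and 0 lower, and none of 15 sources of superoxide passed.

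With Igf-1, none of the 123 wider genes was called, and 9 reached an unadjusted p of at most 0.05, where 9.11% of all genes did. DESeq2 called 1, ggt5a, where 211 of the 17687 genes were called. Between AA and Igf-1, 5 were called, 3 higher in AA and 2 lower, where 4.33% of all genes were, and 11 passed on the adjusted p alone, where 8.37% did. Those with the smallest adjusted p were dpp3 (log2 1.60), idh1 (1.43), selenoh (1.71), the aminopeptidase gene ANPEP (-0.83), oplah (-1.01) and the deiodinase gene dio1 (adjusted p = 0.018). ANPEP, dio1, oplah and selenoh each no longer passed on the adjusted p without Igf-1 replicate 2 (adjusted p = 0.063, 0.067, 0.051 and 0.056). The same held without Igf-1 replicate 3 (0.083, 0.087, 0.067 and 0.055). ANPEP also failed to pass without AA replicate 1 (0.087), and oplah without AA replicate 1 (0.080) or Igf-1 replicate 1 (0.057). With a replicate block oplah (0.054) and dio1 (0.060) did not pass either, and oplah did not pass in the limma fits on FPKM.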

How the data were processed

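The authors mapped paired-end reads with HISAT2 to the Ensembl sea bream genome and estimated expression with StringTie, and the build is not given in the sources used here. They deposited an estimated count per gene and library, labelled as normalized although totals differ between libraries and values peak at multiples of 4. The estimated counts were rounded and tested with edgeR 4.0.16 (R 4.3.3) after filterByExpr and TMM, with all 9 libraries in one quasi-likelihood fit (common dispersion 0.115). Standard errors came from dividing the absolute log2 fold change by the root of the F statistic. The deposited FPKM values, also made by the authors with StringTie, gave levels between genes. For CTR they cover only genes the authors selected. Of the genes described here these are 5, HMOX1, hmox1a, gpx7, msrb3 and GPX2. The called genes gpx8 and msrb1b (ENSSAUG00010013771) are not among them. The fold changes and p-values in those tables, and the lncRNA table, were not used. Gene names were matched to RefSeq (assembly fSpaAur1.1) for 41 of 43 genes with an NCBI number.

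Members and lists were chosen with earlier results of these data known. Values per library are given for every gene past an adjusted p of 0.05 and for the most abundant gene of each class, and of the wider list the 6 smallest adjusted p per comparison are named. Libraries were taken as independent, so p-values measure the spread between these libraries, which may be technical. The scripts were tested on simulated data. Alternatives were RLE size factors, DESeq2 1.42.0, no filter, a fit of the groups compared, a replicate block, each library left out, CTR 3 and AA 2 both left out, counts divided by 4, no fold threshold, and limma 3.58.1 on log2(FPKM + 0.1) and log2(FPKM + 1).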

Additional observations from a re-analysis of the deposited data

How the results depend on the processing

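Across the alternatives, 4 to 6 genes were called in AA against CTR (9 with no fold threshold), 2 to 4 in AA against Igf-1 and 0 in Igf-1 against CTR. None changed direction. HMOX1, hmox1a, gclc and gpx7 kept an adjusted p of at most 0.05 in AA against CTR under all 16 alternatives, and HMOX1 and hmox1a in AA against Igf-1 under all 18. Leaving out 1 library at a time gave 4 to 6 genes in AA against CTR, 0 in Igf-1 against CTR and 2 to 3 in AA against Igf-1. Over all genes those fits called 1286 to 1566, 1 to 58 and 437 to 881, in the same order. Calls for Igf-1 against CTR were thus rare among all genes too. A fit of only the groups compared gave 4 genes in AA against CTR, without gpx8 and msrb1b, where 1233 of all genes were called. On the adjusted p alone, that fit and the replicate block also ended gstz1 (0.051 and 0.052) and nfe2l2a (0.080 and 0.064). Genes passing on the adjusted p alone ranged from 5 to 12 in AA against CTR, the 12 with DESeq2. In AA against Igf-1 they ranged from 2, without Igf-1 replicate 3, to 9, with each limma fit. DESeq2 passed 3730 of all genes in AA against CTR. In AA against Igf-1, 558 of all genes passed without Igf-1 replicate 3, and 1849 and 1906 with the limma fits.

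The wider list gave 9 calls in AA against CTR, 21 with no fold threshold and 6 to 10 with 1 library left out. Over all genes these counts were 1525, 2688 and 1286 to 1566. In Igf-1 against CTR the wider list gave 0 calls, and 1 with DESeq2, which called 211 of all genes. In AA against Igf-1 it gave 5 calls, 11 with no fold threshold and 11 without both CTR replicate 3 and AA replicate 2. Over all genes these counts were 765, 1480 and 1070. Leaving out 1 library gave 2 to 8 calls of the wider list. There were 2 without Igf-1 replicate 2 or Igf-1 replicate 3, and 8 without AA replicate 2. Over all genes the 765 calls became 489, 437 and 716 in these 3 settings. The count thus changed with the libraries kept, and the count over all genes changed too. The causes were not tested.

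With the replicate number as a block, 4 genes were called in AA against CTR, 0 in Igf-1 against CTR and 3 in AA against Igf-1, and 9, 0 and 4 of the wider list. Over all 17687 genes, 1283, 0 and 547 were called in that setting, so in Igf-1 against CTR no gene at all was called. Deviations of libraries with the same number correlated at -0.39 to 0.22, with 4 of 9 pairs over 0.1. This does not meet the criterion for libraries paired by number (every pair over 0.1). Pairing in another order was not tested as a block, and CTR 1 with AA 1 (0.13), CTR 2 with AA 3 and CTR 3 with AA 2 each exceeded 0.1. Pairs with different numbers ran from -0.31 to 0.40, highest for CTR 3 with AA 2, CTR 2 with AA 3 (0.31) and AA 2 with Igf-1 3 (0.30). Whether libraries with the same number share a culture is not known, so the replicate block may not follow the cultures. The FPKM alternatives were run for AA against Igf-1 only. With 3 libraries per group, changes below or above the fold threshold can go undetected. GPX2, at a log2 fold change of -1.56 in AA against CTR, did not pass edgeR's test (adjusted p = 0.17). In Igf-1 against CTR 0.283% of all genes passed on the adjusted p, so no call there does not mean no change.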
